A study of Arabidopsis thaliana with 24 samples.

Results

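The genes described here are the 58 *Arabidopsis thaliana* genes, of 23826 in the deposited expression table, whose transcripts peaked at 24 h in germinating wild-type seeds. They were chosen from the Col (wild type) group means alone. The mean at 24 h had to reach 5 TPM (transcripts per 1000000), and that mean plus 1 had to be at least 2.5 times the mean plus 1 at each of 0, 6 and 48 h. All 58 genes that passed were kept, since the cap of 200 was not reached, and the ref6c libraries, which had no part in the choice, were then read for the same genes.

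The study measured RNA in whole Col and ref6c seeds, dry (0 h) and after 6, 24 and 48 h of imbibition, in 8 groups of 3 libraries. Both genotypes are in the Col background, and ref6c is labelled only as a genotype, that is, as a line of REF6, the gene of the histone H3K27 demethylase RELATIVE OF EARLY FLOWERING 6. Seeds had been stored for at least 3 months to lose dormancy and were sown on dilute MS medium under long days. The growth note attached to every library speaks of ref6-1;REF6-HA seeds, a complemented line, so which seeds a library came from rests on the sample names, and nothing says that the libraries of a group came from separate seed batches. The adjusted p-values below therefore measure the spread between these libraries.

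A dry seed holds stored RNA and reserves. On imbibition it restarts transcription, loosens the walls of the endosperm and the radicle, and pushes the radicle out before it mobilises most of its oil and protein. Sulfate and phosphate enter this programme through enzymes that reduce and bind sulfur and through phosphatases and SPX proteins that sense and release phosphate. REF6 removes methyl groups from lysine 27 of histone H3, a mark laid down by Polycomb complexes on genes that are kept silent, and the protein recognises a short CTCTG-containing DNA motif.

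REF6 transcripts were lower in ref6c than in Col in every library at every time. At 6 h, the time of the highest level in Col, they stood at 35.8 ± 3.67 TPM in Col and 14.4 ± 0.892 TPM in ref6c (mean ± SD, n = 3, as throughout). The 24 libraries held 16624632 to 19260850 reads recovered from the TPM values, and the members drew 24 to 28140 reads each in a Col 24 h library, with a median of 520.5. Replicate 2 of the ref6c 24 h group stood apart. It held the lowest of the 3 values for 51 of the 58 members, and its summed TPM over 9 seed reserve genes was 32039, against 17135 and 16602 in the other 2 libraries of its group and 6355 to 9632 in Col at 24 h. Of those 9 genes 7 had a higher mean in ref6c than in Col at 24 h, and none was at 0. The 4 endosperm genes summed to 1134 to 1295 TPM in ref6c and 903 to 1061 TPM in Col at 24 h, with RGE1 near 0 in every library. The part of these differences in the member values was not tested. Values without replicate 2 are given beside some of the counts they touch, and the rest are with all 3 libraries.

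**Figure D1:**
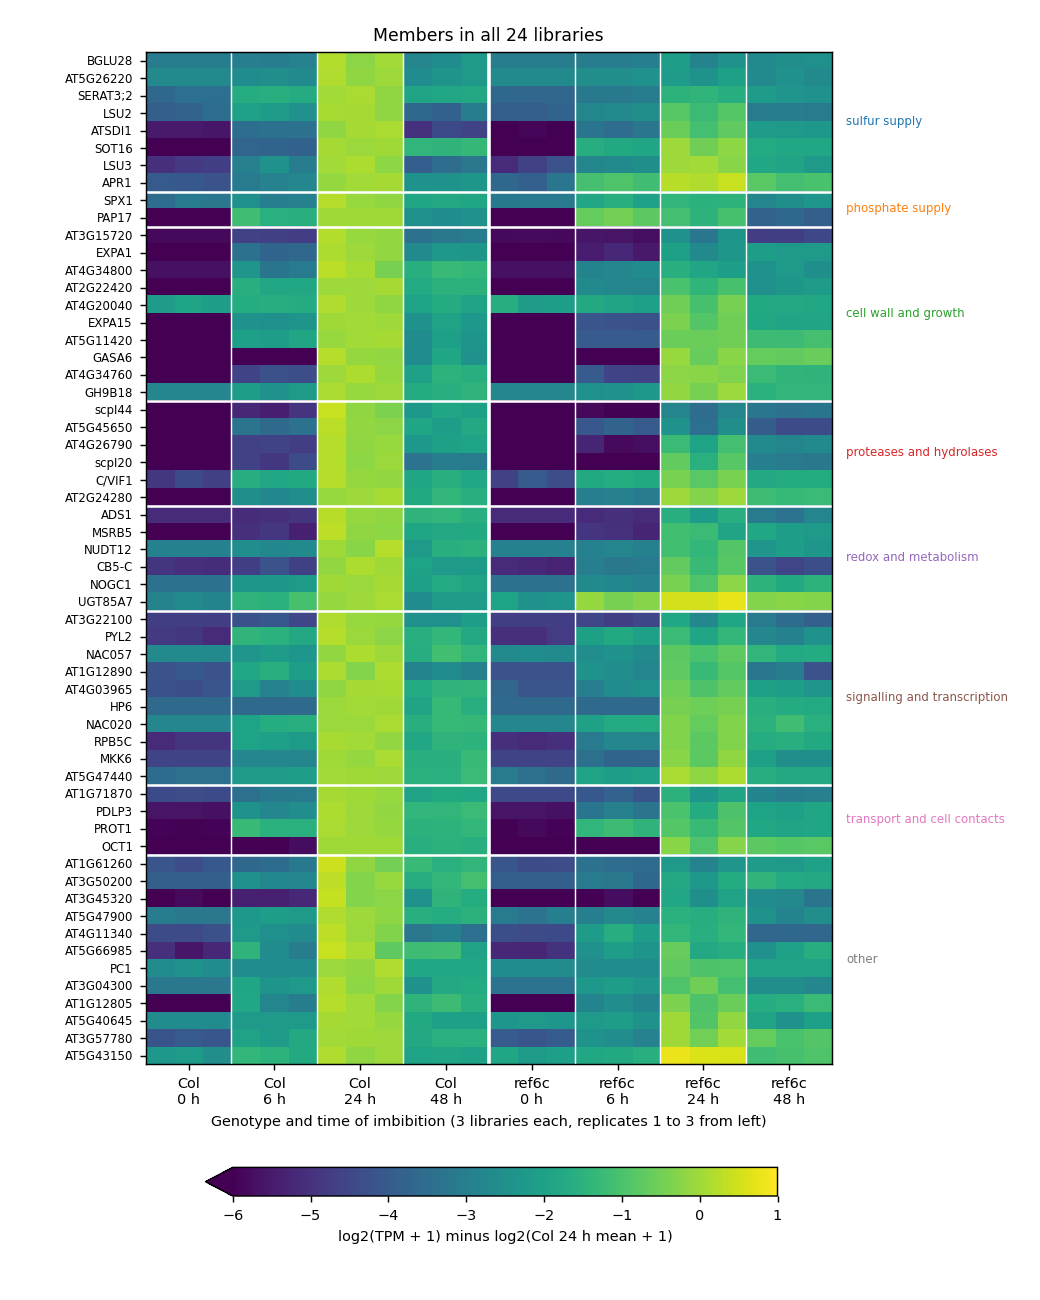
Every member in all 24 libraries. Rows are the 58 genes in order of role, columns are single libraries in order of genotype and time, and colour is log2(TPM + 1) minus log2(Col 24 h mean + 1), so that 0 is the Col 24 h level and each unit is a doubling. The Col 24 h columns are bright because they chose the rows. The ref6c 24 h columns are the brightest ref6c columns for most rows and are dimmer than the Col 24 h columns.

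In Col, 49 of the 58 members had a mean under 1 TPM in the dry seed. Their 24 h means ran from 5.13 TPM for PC1, a calcium-binding protein named from pollen, to 1304 TPM for AT1G12805, annotated as a nucleotide binding protein. The next-highest time was 48 h for 45 members and 6 h for 13. The ratio of the 24 h value to the highest other time ran from 2.51 to 10.66 with a median of 3.26, and the sharpest peaks belonged to ATSDI1, AT3G15720, scpl20, LSU3 and BGLU28. By 48 h the Col means were down to 2.52% to 38.4% of the 24 h level. These are the values that chose the members, and no test was run on them. Just inside the ratio limit lay UGT85A7 at 2.51, PDLP3 at 2.52 and AT3G50200 at 2.52. Just outside it lay SHM7 at 2.47, WVD2 at 2.46 and AT3G42850 at 2.46. At the expression limit PC1 at 5.13 TPM, AT5G40645 at 5.14 TPM and NAC057 at 5.26 TPM were in, and AT5G63240 at 4.84 TPM, AT3G14320 at 4.82 TPM and AT4G20230 at 4.76 TPM were out.

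In ref6c most of the same genes also peaked at 24 h. The ref6c mean was highest at 24 h for 54 of the 58 members, against 3015 of the 13078 genes (23.05%) with a Col 24 h mean of 5 TPM or more. It was highest at 48 h for EXPA1, AT1G61260 and AT3G50200 and at 6 h for PAP17. From 6 h to 24 h in ref6c, 57 members rose and PAP17 fell (limma on log2(TPM + 1), 2-sided, Benjamini-Hochberg adjusted p under 0.05 over all 18481 genes tested). Over all genes tested, 34.98% rose and 32.6% fell in that step. All 3 ref6c libraries at 24 h lay above all 3 at 6 h for 55 members, where 37.5% of all genes tested did so. The median change was 1.98 on the log2(TPM + 1) scale for the members and 0.00 for all genes. All 58 members passed the expression filter, and 56 had 1 TPM or more in at least 3 ref6c libraries, the exceptions being BGLU28 and AT5G26220. These 2 entered the fit through their Col libraries, so no test of them is read here or below, and among the other 56 members 55 rose and PAP17 fell. The seeds were measured whole, so fewer cells of a type and less RNA per cell cannot be told apart here or below.

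From 24 h to 48 h in ref6c, 50 members fell and none rose, and without BGLU28 and AT5G26220 it was 49 of 56. Over all genes tested, 24.5% fell and 30.2% rose, and the median change was −1.13 for the members and 0.06 for all genes. All 3 ref6c libraries at 48 h lay below all 3 at 24 h for 49 members (27.3% of all genes) and above them for 1, AT1G61260 (36.4% of all genes). The 8 members not called in this step were BGLU28, EXPA1, GASA6, scpl44, OCT1, AT1G61260, AT5G66985 and AT3G50200. Without replicate 2 of ref6c at 24 h, 57 members rose to 24 h and 52 fell after it, with BGLU28 and AT5G26220 counted in. Against the dry seed all 58 members were higher at 24 h in ref6c, and without BGLU28 and AT5G26220 all 56, where 77.1% of all genes were. The median difference was 3.40 for members and 1.44 for all genes. Median-of-ratios scaling brought the all-gene median of that step to 0.10 and the members' median to 2.70, with 56 of them still called and SPX1 and AT4G20040 not called. These 56 called members include BGLU28 and AT5G26220.

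Set against Col at 24 h, the ref6c means of the members ran from 7.49% to 160% of the Col mean, with a median of 49.8%. The median was 96.05% over the 13078 genes with a Col 24 h mean of 5 TPM or more. Without ref6c replicate 2 the members' median was 53.8%. The ref6c level was under 50% of Col for 29 members (27 without ref6c replicate 2) and under 25% for 11. It was at 90% or more for 7, namely LSU3, APR1, AT2G24280, AT3G57780, AT5G43150, AT5G47440 and UGT85A7. All 3 ref6c libraries lay below all 3 Col libraries for 46 members, where 29.7% of all genes tested did so, and above them for 3 members (18.4% of all genes). The fit called 46 members lower and 2 higher at 24 h, against 22.2% and 12.02% of all genes, and 41 lower without ref6c replicate 2. The members were chosen for high Col 24 h values, so these counts are a description and nothing is read from them.

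**Figure D2:**
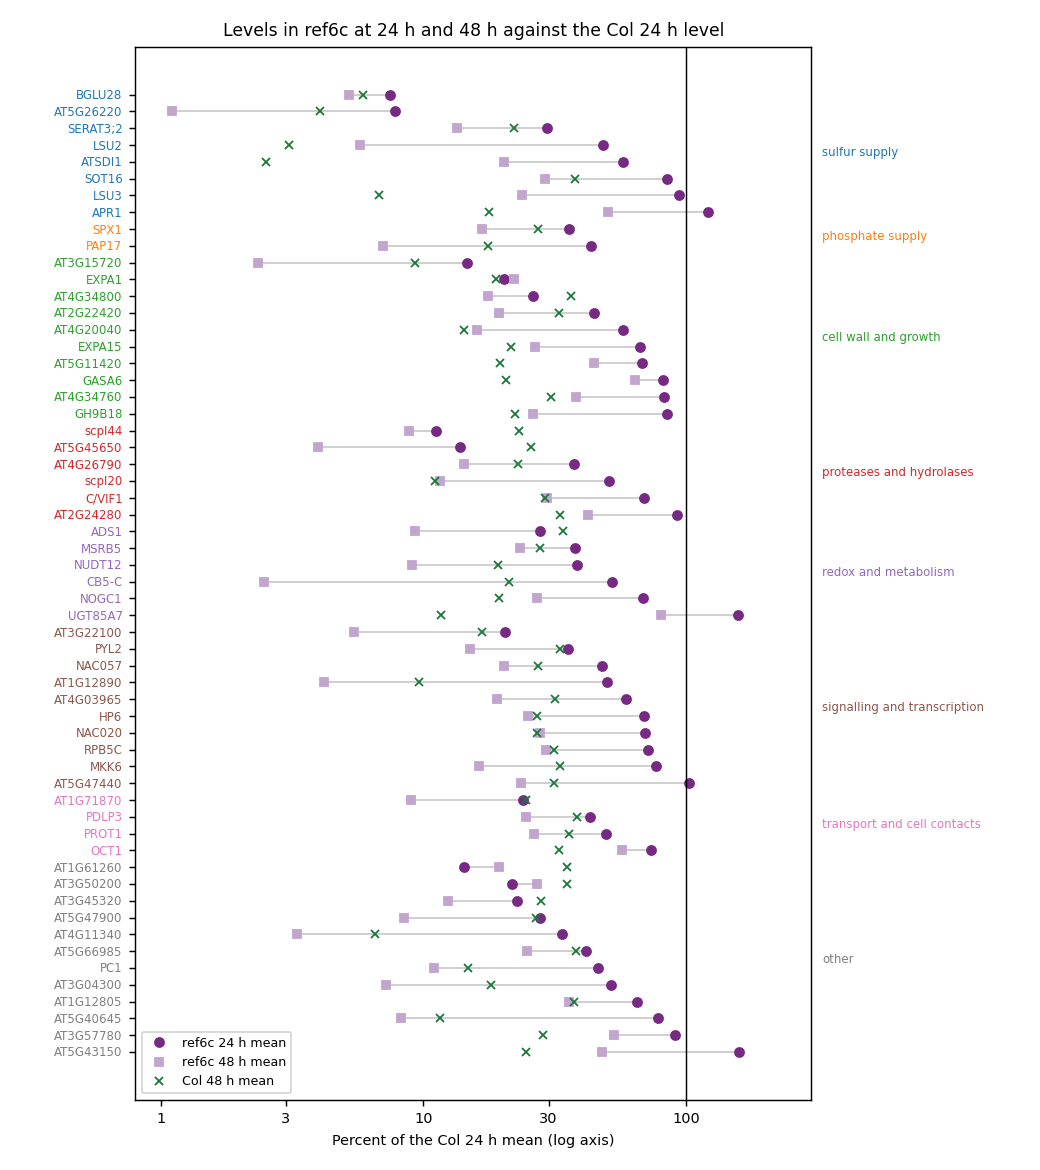
Level of each member as a percent of its Col 24 h mean, on a log axis, with genes in order of role. Dark circles are ref6c 24 h means, pale squares ref6c 48 h means and crosses Col 48 h means, joined by a line from the ref6c 48 h to the ref6c 24 h mean. Circles run from 7.49% to 160%, with 4 to the right of the line at 100%, and no square reaches that line.

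No member reached its Col 24 h level in ref6c at 48 h. The ref6c 48 h means were 1.103% to 80.1% of the Col 24 h means, with a median of 19.5%, where the Col 48 h means of the members had a median of 24.7%. Over the 13078 genes with a Col 24 h mean of 5 TPM or more the same medians were 95.41% for ref6c and 97.41% for Col. Within ref6c the 48 h mean was 39.5% of the 24 h mean at the median. The 48 h mean was higher in ref6c than in Col for 20 members and lower for the others. The fit called 13 higher and 27 lower at 48 h, where 22.1% and 34.1% of all genes were called. The Col 48 h means also chose the members, so these counts are a description and nothing is read from them. Read on the ref6c means, the same rule was met by 32 genes, 14 of which are members. Of the other 44 members, 13 were under 5 TPM in ref6c at 24 h, and 21 reached that level but missed the ratio against 48 h alone.

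**Figure D3:**
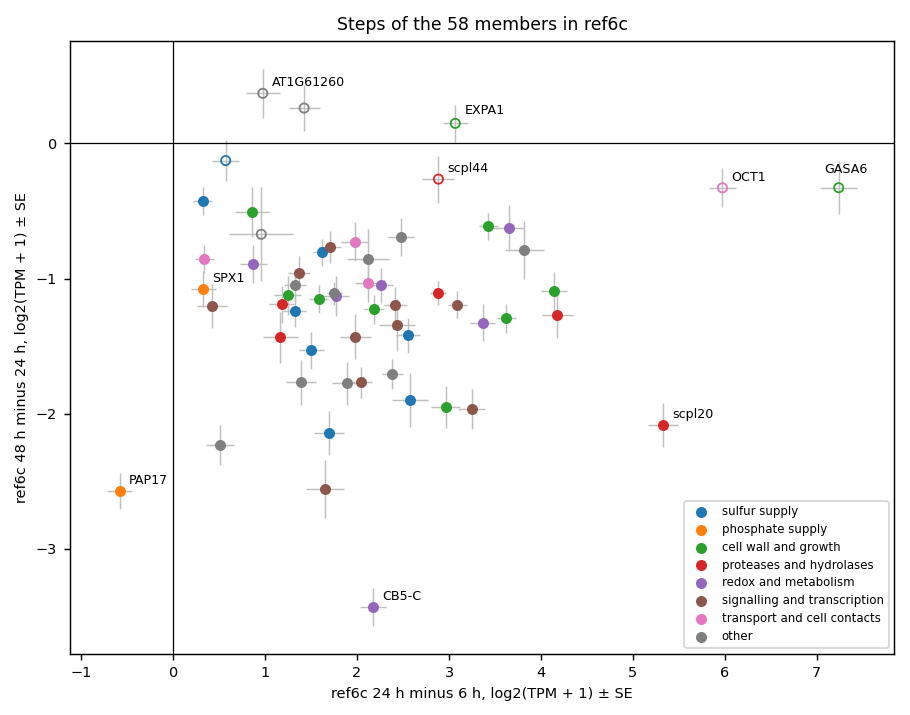
Change of each member in ref6c from 6 h to 24 h (x axis) and from 24 h to 48 h (y axis), as differences of log2(TPM + 1) with SE bars, coloured by role. Filled points were called from 24 h to 48 h and open points were not. PAP17 is the only point left of 0, and the 3 points above 0 on the y axis are all open.

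The genes were sorted into roles after their names and values were known, so the counts below describe them and test nothing. Of the 8 members of sulfur supply, the 6 other than BGLU28 and AT5G26220 all rose in ref6c from 6 h to 24 h and all fell from 24 h to 48 h. ATSDI1 (AT5G48850), SULFUR DEFICIENCY INDUCED 1, a repressor of glucosinolate synthesis in sulfur-starved plants, had the sharpest Col peak of all members. It stood at 57.2, 67.2 and 69.4 TPM in the Col 24 h libraries and at 43.1, 29.6 and 39.1 TPM in those of ref6c. The groups did not overlap, with ref6c the lower. At 48 h the order was the other way, with 1.05, 2.06 and 1.78 TPM in Col and 13.9, 12.98 and 12.5 TPM in ref6c. The log2 change in ref6c was 2.55 ± 0.13 (SE) from 6 h to 24 h (limma adjusted p = 5.9e-14) and −1.42 ± 0.13 after it (limma adjusted p = 6.7e-09).

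LSU3 (AT3G49570) and LSU2 (AT5G24660) encode small proteins named for their response to low sulfur. LSU3 had 47.0, 51.5 and 40.4 TPM in Col and 45.1, 47.4 and 38.8 TPM in ref6c at 24 h. These groups overlapped. It stayed higher in ref6c at 48 h, with 9.05 to 12.5 TPM against 2.17 to 4.06 TPM. LSU2 reached 15.2 ± 1.41 TPM in Col and 7.36 ± 1.27 TPM in ref6c at 24 h and fell in ref6c by 2.15 ± 0.16 on the log2 scale by 48 h (limma adjusted p = 3.2e-10).

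APR1 (AT4G04610), which reduces activated sulfate in the controlling step of assimilation, was higher in ref6c at every time, dry seeds included. In dry seeds it had 2.64, 2.51 and 2.19 TPM in Col and 3.75, 3.05 and 5.22 TPM in ref6c. Its 6 h values were 5.80, 6.86 and 7.75 TPM in Col and 27.4, 29.9 and 25.5 TPM in ref6c. At 24 h they were 53.9, 59.7 and 60.4 TPM in Col and 69.5, 65.2 and 76.8 TPM in ref6c, and at 48 h 10.3 ± 0.621 and 29.4 ± 3.20 TPM. The ref6c libraries were the higher at each of these times, without overlap. SOT16 (AT1G74100), a sulfotransferase of glucosinolate synthesis, was also higher in ref6c at 6 h, with 45.1 ± 1.47 TPM in Col and 185 ± 13.7 TPM in ref6c at 6 h. At 24 h it stood at 645, 599 and 625 TPM in Col and 610, 437 and 542 TPM in ref6c, and those groups overlapped. APR1 rose by 1.32 ± 0.12 and SOT16 by 1.50 ± 0.14 on the log2 scale from 6 h to 24 h in ref6c (limma adjusted p = 2.1e-09 and 1.7e-09).

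BGLU28 and AT5G26220 were the members furthest below Col in percent of its 24 h level. BGLU28 (AT2G44460) is a beta-glucosidase that breaks down glucosinolates when sulfur is short, and AT5G26220, a ChaC-like protein, belongs to the enzymes that degrade glutathione. BGLU28 had 8.29, 5.99 and 7.31 TPM in Col and 0.955, 0.116 and 0.546 TPM in ref6c at 24 h. AT5G26220 had 6.18, 4.77 and 5.35 TPM in Col and 0.464, 0.225 and 0.589 TPM in ref6c. Every ref6c library was below 1 TPM for both genes while every Col library was above 4 TPM. SERAT3;2 (AT4G35640), a serine acetyltransferase that makes the precursor of cysteine, had 11.9 ± 1.21 TPM in Col and 3.55 ± 0.346 TPM in ref6c at 24 h. Among the 18 genes of a sulfur list drawn up after the members were known, 16 were tested and 7 are members. Without BGLU28 and AT5G26220 14 were tested, of which in ref6c 11 rose and 2 fell from 6 h to 24 h, and 12 fell and none rose after it. SHM7 and AT1G04770, a relative of ATSDI1, lay just under the ratio limit at 2.47 and 2.40.

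**Figure D4:**
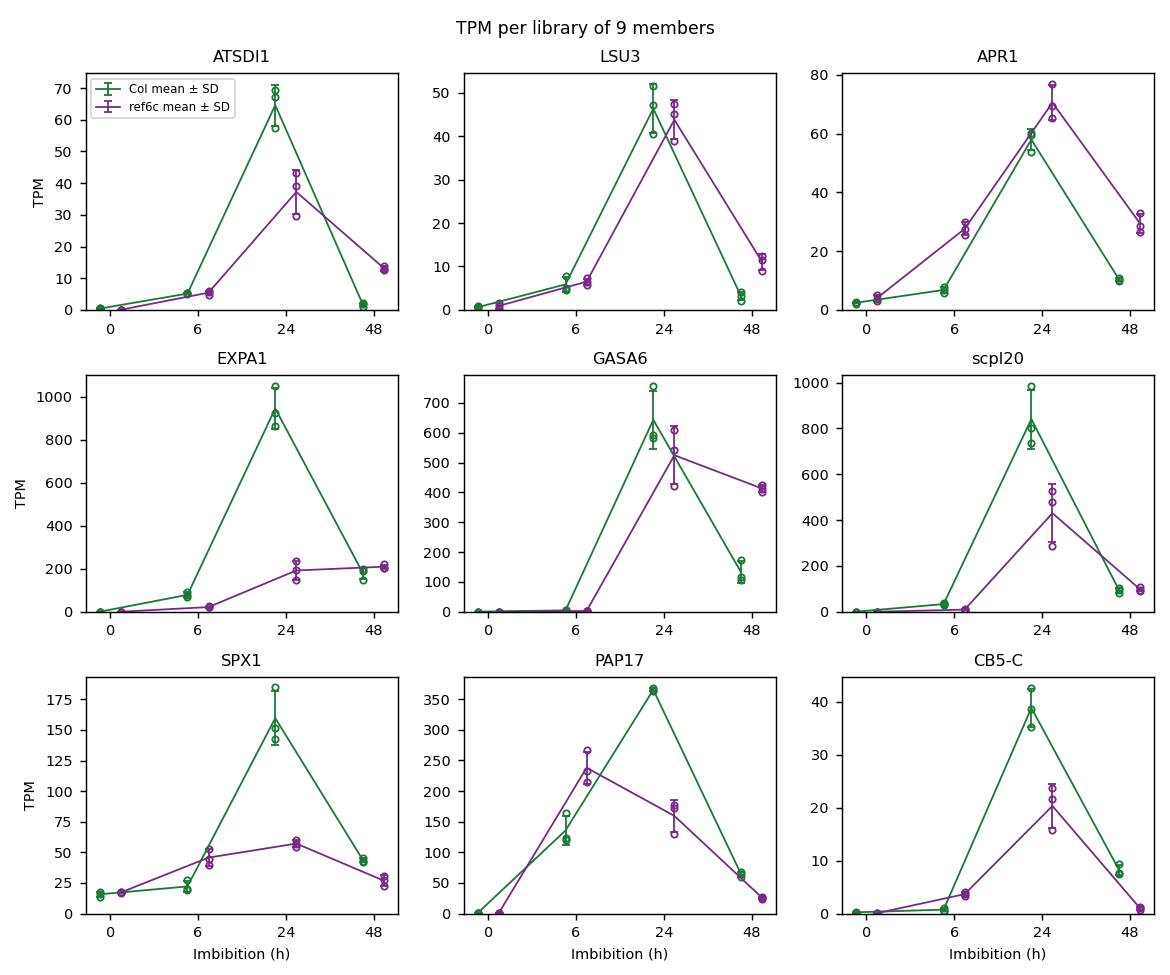
TPM of 9 members in each library against hours of imbibition (times evenly spaced, not to scale), with open circles for single libraries and lines through the group means with SD bars. Col is green and ref6c purple. The Col line peaks at 24 h in each panel. In ref6c PAP17 is highest at 6 h, EXPA1 is level from 24 h to 48 h, GASA6 stays high at 48 h, and APR1 lies above Col at every time.

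Of the phosphate pair, PAP17 had its highest ref6c mean at 6 h and SPX1 kept it at 24 h. SPX1 (AT5G20150), a sensor protein that holds back the phosphate-starvation regulator PHR1, had 185, 152 and 143 TPM in Col and 60.3, 54.5 and 56.6 TPM in ref6c at 24 h. At 6 h it had 27.7, 18.9 and 19.9 TPM in Col and 44.7, 52.8 and 39.5 TPM in ref6c. The groups were apart at both times, in opposite orders. Its further rise in ref6c was 0.33 ± 0.13 (limma adjusted p = 0.037), and this call ended with median-of-ratios scaling (0.061), with no filter (0.054) and without ref6c replicates 1 or 3 at 6 h or at 24 h (limma adjusted p from 0.066 to 0.18). PAP17 (AT3G17790), a purple acid phosphatase that rises in phosphate-starved and ageing plants, had 363, 365 and 368 TPM in Col at 24 h. In ref6c it was highest at 6 h, with 232, 267 and 215 TPM, followed by 172, 130 and 177 TPM at 24 h and 25.7 ± 1.97 TPM at 48 h. Its ref6c values at 6 h lay above the Col ones, which were 164, 124 and 120 TPM. It fell in ref6c in both steps, by 0.58 ± 0.14 and then by 2.58 ± 0.14 on the log2 scale (limma adjusted p = 0.00062 and 6.8e-13). Of the 10 genes of a phosphate list, also drawn up afterwards, 8 were tested. In ref6c 4 rose and 2 fell from 6 h to 24 h, and 4 fell and none rose after it.

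All 10 members of cell wall and growth rose in ref6c from 6 h to 24 h, and 8 fell afterwards. Expansins loosen cell walls without cutting them. EXPA1 (AT1G69530) had 1050, 924 and 865 TPM in Col and 234, 150 and 193 TPM in ref6c at 24 h, and at 48 h 150, 197 and 190 TPM in Col and 221, 204 and 204 TPM in ref6c. At 24 h each ref6c library was far below each Col library, and at 48 h each was slightly above. The gene rose in ref6c by 3.07 ± 0.14 to 24 h (limma adjusted p = 4.3e-15) and was not called after it (0.15 ± 0.14, limma adjusted p = 0.37). EXPA15 (AT2G03090) had 206 ± 3.72 TPM in Col and 137 ± 23.6 TPM in ref6c at 24 h and fell in ref6c by 1.29 ± 0.11 on the log2 scale after it (limma adjusted p = 8.7e-10). These 2 are the only members among 20 listed alpha-expansins, of which 17 were tested and 11 rose and none fell in ref6c from 6 h to 24 h, and 5 rose and 3 fell from 24 h to 48 h.

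GASA6 (AT1G74670), a gibberellin-responsive peptide, had the largest rise of all members in ref6c, 7.24 ± 0.20 on the log2 scale from 6 h to 24 h (limma adjusted p = 9.9e-19). It had 756, 592 and 583 TPM in Col and 610, 420 and 544 TPM in ref6c at 24 h, and these overlapped. At 48 h Col was down to 105, 174 and 118 TPM while ref6c held 412, 402 and 426 TPM, with no overlap. Its change after 24 h in ref6c was not called (−0.33 ± 0.20, limma adjusted p = 0.17), and voom on recovered reads called it (−0.35, adjusted p = 0.033). AT5G11420, a cell wall protein of the DUF642 family, had 276 ± 15.3 TPM in Col and 188 ± 4.99 TPM in ref6c at 24 h. At 48 h it too was higher in ref6c, with 123 ± 6.87 against 54.2 ± 10.6 TPM.

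Pectin lyase-like AT3G15720 had one of the sharpest Col peaks. Its 24 h values were 65.2, 54.3 and 51.8 TPM in Col and 9.86, 5.08 and 10.1 TPM in ref6c, and it rose in ref6c by 2.96 ± 0.16 (limma adjusted p = 8.6e-14). A second pectin lyase-like gene, AT4G20040, had 5.46 ± 0.767 TPM in Col and 3.16 ± 0.892 TPM in ref6c. AT2G22420, a class III peroxidase, had 97.8 ± 3.30 TPM in Col and 43.6 ± 6.66 TPM in ref6c. GH9B18, of the endoglucanase family, was at 5.90 ± 0.461 and 5.01 ± 0.847 TPM, with overlap. The SAUR-like genes are short auxin-response genes of growing tissue. AT4G34760 had 84.5 ± 7.58 TPM in Col and 69.8 ± 3.19 TPM in ref6c at 24 h, and AT4G34800 had 50.3 ± 12.2 and 13.1 ± 2.44 TPM. The fall of AT4G34800 in ref6c after 24 h (−0.51 ± 0.19, limma adjusted p = 0.026) ended with voom on recovered reads (adjusted p = 0.053) and without replicates 1 or 2 of ref6c at 24 h or 1 or 3 at 48 h (limma adjusted p from 0.051 to 0.13).

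Each of the 6 genes grouped as proteases and hydrolases, with the inhibitor C/VIF1 counted in, rose in ref6c from 6 h to 24 h, and 5 fell after it. Serine carboxypeptidase-like proteins trim peptides or transfer acyl groups. scpl20 (AT4G12910) had 984, 735 and 804 TPM in Col and 526, 286 and 479 TPM in ref6c at 24 h, with no overlap, and by 48 h the means were 93.4 ± 10.1 and 97.5 ± 8.25 TPM. It rose by 5.33 ± 0.16 and fell by 2.08 ± 0.16 on the log2 scale in ref6c (limma adjusted p = 4.6e-18 and 3.8e-10). scpl44 (AT1G43780) had 95.7, 63.0 and 54.6 TPM in Col and 9.32, 5.38 and 9.18 TPM in ref6c at 24 h, and its difference of −3.00 ± 0.17 was the largest deficit of any member on the log2 scale. Its change in ref6c after 24 h was not called (−0.26 ± 0.17, limma adjusted p = 0.21) except without ref6c 24 h replicate 2 (−0.49, limma adjusted p = 0.016). The subtilase AT5G45650, a serine protease, had 67.3 ± 12.9 TPM in Col and 9.26 ± 3.44 TPM in ref6c. AT4G26790, a GDSL lipase, had 80.5 ± 12.1 and 30.2 ± 8.92 TPM. C/VIF1 (AT1G47960), an inhibitor of invertases, had 98.4 ± 13.7 TPM in Col and 68.2 ± 10.5 TPM in ref6c, and AT2G24280, an alpha/beta hydrolase, had 309 ± 19.2 and 285 ± 30.2 TPM.

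All 6 genes of redox and metabolism rose and then fell in ref6c. CB5-C (AT2G46650), a cytochrome b5 that passes electrons to membrane enzymes, had the steepest fall of all members. Its ref6c values were 23.6, 15.8 and 21.6 TPM at 24 h and 1.17, 0.730 and 0.980 TPM at 48 h, while Col went from 38.8 ± 3.65 to 8.21 ± 0.979 TPM. The ref6c change was −3.43 ± 0.14 (limma adjusted p = 8.7e-15). At 6 h the order was reversed, with 0.737 ± 0.349 TPM in Col and 3.67 ± 0.313 TPM in ref6c. UGT85A7 (AT1G22340), a UDP-glucosyl transferase, was higher in ref6c at every time, without overlap. In dry seeds it had 0.474, 0.684 and 0.491 TPM in Col and 1.76, 0.989 and 1.104 TPM in ref6c. It had 8.97, 9.53 and 10.54 TPM in Col and 14.3, 14.3 and 17.3 TPM in ref6c at 24 h, and at 48 h 1.13 ± 0.339 and 7.75 ± 0.194 TPM. ADS1 (AT1G06080), a fatty acid desaturase, had 35.1 ± 5.61 TPM in Col and 9.73 ± 2.20 TPM in ref6c at 24 h. MSRB5 (AT4G04830), which repairs oxidised methionine, had 73.6 ± 14.8 and 27.7 ± 7.77 TPM, and its fall in ref6c (−0.63 ± 0.17, limma adjusted p = 0.0033) ended when only the groups compared were fitted (limma adjusted p = 0.053). The nudix hydrolase NUDT12 had 6.54 ± 1.20 and 2.51 ± 0.587 TPM, and NOGC1, a flavin monooxygenase, had 9.50 ± 0.369 and 6.54 ± 1.82 TPM.

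The 10 genes of signalling and transcription all rose and all fell in ref6c. PYL2 (AT2G26040), an abscisic acid receptor, had 205, 171 and 153 TPM in Col and 74.2, 46.5 and 67.1 TPM in ref6c at 24 h, with no overlap. Its rise in ref6c was small (0.42 ± 0.16, limma adjusted p = 0.024), and the call ended when only the groups compared were fitted (0.096) and without ref6c replicates 1 or 3 at 6 h or at 24 h (limma adjusted p from 0.077 to 0.15). HP6 (AT1G80100), a pseudo-phosphotransfer protein that dampens cytokinin signalling, was listed at 0 in all 12 libraries of 0 h and 6 h. At 24 h it had 10.52, 11.1 and 10.96 TPM in Col and 7.74, 7.07 and 7.77 TPM in ref6c. The bHLH gene AT3G22100 had 28.2, 23.6 and 23.3 TPM in Col and 6.28, 2.85 and 6.24 TPM in ref6c and was listed at 0 in all dry seeds. AT1G12890, of the ERF type, fell in ref6c by 2.56 ± 0.21 on the log2 scale after 24 h (limma adjusted p = 1.1e-09). MKK6 (AT5G56580), a kinase of the cascade that guides cytokinesis, had 22.7 ± 2.00 TPM in Col and 17.4 ± 3.97 TPM in ref6c and fell in ref6c by 1.97 ± 0.15 (limma adjusted p = 2e-10). For NAC020 and NAC057, of the NAC factor family, the 24 h means were 5.77 and 5.26 TPM in Col and 4.03 and 2.51 TPM in ref6c. RPB5C, an RNA polymerase subunit, had 34.3 ± 2.65 and 24.6 ± 4.29 TPM, the RING protein AT4G03965 had 22.2 ± 2.05 and 13.1 ± 1.93 TPM, and AT5G47440, of the DUF828 family, had 10.9 ± 0.237 and 11.2 ± 1.39 TPM.

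All 4 transport and cell contact genes rose in ref6c and 3 fell. OCT1 (AT1G73220), a transporter of carnitine, had 112, 111 and 111 TPM in Col and 94.3, 58.4 and 92.7 TPM in ref6c at 24 h. At 48 h ref6c was the higher, with 65.2, 61.4 and 63.9 TPM against 36.0, 38.4 and 35.8 TPM. It rose by 5.97 ± 0.15 in ref6c (limma adjusted p = 1.2e-19) and was not called after 24 h (−0.33 ± 0.15, limma adjusted p = 0.061). That fall was called with median-of-ratios scaling (0.043), with voom (0.011), without ref6c 24 h replicate 2 (0.00093) and without Col 6 h replicates 1 or 3 (0.032 and 0.034, all adjusted p). PROT1, a proline transporter, had 63.3 ± 4.83 TPM in Col and 31.4 ± 5.10 TPM in ref6c, and its rise in ref6c (0.34 ± 0.10, limma adjusted p = 0.0059) ended when only the groups compared were fitted (limma adjusted p = 0.071). AT1G71870, a MATE efflux protein, had 21.1 ± 1.05 and 5.06 ± 1.70 TPM, and PDLP3, a plasmodesmata protein, had 50.2 ± 4.82 and 21.7 ± 5.87 TPM.

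Among the 12 remaining members, AT5G43150, annotated as an elongation factor, was the one furthest above Col. It had 65.5, 52.7 and 57.5 TPM in Col and 102, 90.7 and 87.8 TPM in ref6c at 24 h. AT1G12805 had 1526, 1328 and 1056 TPM in Col and 1001, 669 and 882 TPM in ref6c. The groups of both genes were apart, in opposite orders. AT4G11340, of the TIR-NBS-LRR resistance proteins, had 25.7, 19.6 and 16.1 TPM in Col and 7.33, 6.09 and 7.31 TPM in ref6c, and its fall in ref6c was among the steepest (−2.23 ± 0.15, limma adjusted p = 3.4e-11). AT1G61260 (DUF761) and AT3G50200 (DUF247) had higher ref6c means at 48 h than at 24 h. AT1G61260 had 3.85, 2.13 and 3.49 TPM at 24 h and 4.11, 3.99 and 4.79 TPM at 48 h in ref6c, against 30.7, 19.6 and 15.7 TPM in Col at 24 h. Neither was called in that step (0.37 ± 0.18 and 0.26 ± 0.17, limma adjusted p = 0.091 and 0.2), and AT1G61260 was called without Col 24 h replicate 1 (0.04) or ref6c 24 h replicate 1 (limma adjusted p = 0.046).

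The uncharacterised AT3G45320 had 62.8 ± 17.6 TPM in Col and 14.2 ± 3.76 TPM in ref6c, and its fall in ref6c (−0.79 ± 0.22, limma adjusted p = 0.004) ended with a pseudocount of 0.1 (limma adjusted p = 0.062). AT5G66985, also uncharacterised, had 311, 252 and 140 TPM in Col and 150, 67.5 and 74.3 TPM in ref6c at 24 h. Its rise in ref6c (0.96 ± 0.35, limma adjusted p = 0.018) ended without replicate 1 of ref6c at 24 h (0.15) or at 6 h (limma adjusted p = 0.056). PC1 was listed at 0 in all 6 libraries of 6 h and stood at 5.13 ± 0.713 TPM in Col and 2.38 ± 0.332 TPM in ref6c at 24 h. The 3 pollen genes VGD1, SKS13 and VEX1 summed to 9.19 to 9.85 TPM in Col and 8.42 to 11.4 TPM in ref6c at that time. Nearly all of this was SKS13, with means of 9.49 and 9.57 TPM, while VGD1 was at 0 and VEX1 at 0.06 and 0.08 TPM. The cupin AT3G04300, the RIN4-like AT5G40645, the nucleolar-like AT3G57780 and AT5G47900, annotated as an N-acetyltransferase, had Col 24 h means of 9.04, 5.14, 17.3 and 10.03 TPM and ref6c means of 4.69, 4.01, 15.7 and 2.80 TPM.

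Over all members the fit called 7 higher and 20 lower in ref6c at 6 h, where 5.89% and 10.1% of all genes were, and 3 higher and 2 lower in dry seeds, where 2.07% and 10.6% were. The 7 were APR1, SOT16, SPX1, PAP17, CB5-C, UGT85A7 and AT4G11340. The Col means at 0 h and 6 h also chose the members, so nothing is read from these calls against Col. In ref6c 44 members rose from 0 h to 6 h, where 75.98% of all genes rose and 8.47% fell. The median change in that step was 1.28 for the members and 1.29 for all genes. With median-of-ratios scaling it was 0.002 for all genes. The members' median under that scaling is not given, so the unscaled 1.28 cannot be set against it. From 6 h to 48 h 39 members ended higher and 9 lower, against 40.6% and 34.8% of all genes. BGLU28 is counted among the 39, though no test of it is read. Among other lists of genes that act in germination, 1 of 7 GASA peptides is a member, and none of 32 xyloglucan endotransglucosylases, 5 endo-mannanases, 10 gibberellin synthesis genes, 6 epidermal layer genes, 9 root hair genes, 7 hypoxia genes, 8 cell cycle genes or 6 photosynthesis genes is. From 6 h to 24 h in ref6c, 3 GASA genes rose and 2 fell, 10 xyloglucan genes rose and 4 fell, 3 mannanases rose and 2 fell, and 3 gibberellin synthesis genes rose and 6 fell. In that step 4 epidermal genes rose, no root hair gene was called, 2 hypoxia genes rose and 2 fell, 6 cell cycle genes rose and 1 fell, and 4 photosynthesis genes rose. From 24 h to 48 h 3 GASA genes rose and 1 fell, 13 xyloglucan genes rose and 4 fell, 3 mannanases rose, 1 gibberellin synthesis gene rose and 6 fell, 2 epidermal genes rose and 1 fell, 3 root hair genes and 2 hypoxia genes rose, 4 cell cycle genes rose and 2 fell, and 6 photosynthesis genes rose. By words in the reference product names, the members held 2 of 27 expansin genes (7.41%), 1 of 59 class III peroxidases (1.69%), 4 of 241 hormone genes (1.66%) and 2 of 199 pectin enzymes (1.01%). Lower shares were those of transporters (2 of 588, 0.34%), transcription factors (3 of 1356, 0.221%) and kinases and receptors (1 of 1389, 0.072%). There was no gene of the cytochrome P450, heat shock, lipid transfer, wall protein or glutathione S-transferase families. The members are 58 of all 23826 genes, so small families and lists with few or no members are a description, and nothing is read from them.

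Promoters of 300 bases, 250 before and 50 after the gene start, were read for all 58 members and for 23640 genes in all from the TAIR10.1 genome of RefSeq and searched on both strands. The REF6 motif, spelled as CTCTGTTT, CTCTGTTC, CTCTGCTT or CTCTGCTC, was in 5 members (8.62%) and in 7.72% of all promoters. The G-box CACGTG, bound by bHLH and bZIP factors, was in 8 members (13.8%) and 8.37% of all. The motif P1BS, spelled GNATATNC and bound by the phosphate regulator PHR1, was in 7 members (12.1%) and 6.24% of all. The sulfur core GAGAC was in 17 members (29.3%) and 32.7% of all, and in 4 of the 8 sulfur members. P1BS and GAGAC were added after the members' names were seen. TATAAA was in 58.6% of members and 51.8% of all promoters, TAACAAA in 24.1% and 18.5%, TTGACC or TTGACT in 27.6% and 32.5%, TGTCTC or TGTCGG in 17.2% and 18.7%, AAACCCTA in 8.62% and 5.91%, TAAATGTA or TAAATGCA in 3.45% and 5.15%, and TGGGCC or TGGGCT in 8.62% and 23.5%. The E2F sites TTTCCCGC, TTTGGCGC, TTTCGCGC and TTTGCCGC were in no member and in 1.87% of all promoters. A match is a description of the letters and no measure of binding. The 4 promoters printed here belong to ATSDI1, which has the sharpest peak and a REF6 motif, to LSU3 and scpl20, which share a G-box and differ in their ref6c level, and to SPX1, the phosphate sensor with P1BS. Each runs from 250 bases before to 30 after the annotated start, 5′ to 3′ on the gene's strand, with the named motif in capitals. They lie at chr5:19807824-19808103 (minus strand), chr3:18373118-18373397 (minus strand), chr4:7553346-7553625 (minus strand) and chr5:6802032-6802311 (plus strand).
ATSDI1: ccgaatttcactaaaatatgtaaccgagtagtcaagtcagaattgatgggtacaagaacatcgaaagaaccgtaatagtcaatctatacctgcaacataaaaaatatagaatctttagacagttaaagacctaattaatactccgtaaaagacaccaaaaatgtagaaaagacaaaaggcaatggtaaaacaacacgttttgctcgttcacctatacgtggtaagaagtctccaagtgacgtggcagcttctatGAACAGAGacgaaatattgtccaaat
LSU3: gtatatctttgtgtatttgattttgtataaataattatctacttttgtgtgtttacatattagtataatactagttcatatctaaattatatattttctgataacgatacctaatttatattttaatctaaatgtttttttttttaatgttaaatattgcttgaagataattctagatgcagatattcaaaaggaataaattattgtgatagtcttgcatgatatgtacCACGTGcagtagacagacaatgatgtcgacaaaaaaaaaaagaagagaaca
scpl20: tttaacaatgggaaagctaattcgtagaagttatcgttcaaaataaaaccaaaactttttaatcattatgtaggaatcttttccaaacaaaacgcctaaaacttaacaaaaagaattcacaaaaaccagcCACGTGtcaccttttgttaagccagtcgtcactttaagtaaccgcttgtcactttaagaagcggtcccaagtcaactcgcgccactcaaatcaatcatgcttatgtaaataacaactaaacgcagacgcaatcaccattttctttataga
SPX1: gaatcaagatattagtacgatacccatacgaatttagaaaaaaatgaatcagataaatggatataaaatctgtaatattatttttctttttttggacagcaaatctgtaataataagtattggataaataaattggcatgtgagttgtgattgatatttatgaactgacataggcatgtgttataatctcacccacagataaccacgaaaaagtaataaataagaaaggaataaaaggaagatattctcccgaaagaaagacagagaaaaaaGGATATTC

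The members were spread over the genome, with 16 on chromosome 1, 14 on chromosome 5, 11 on chromosome 4, 9 on chromosome 3 and 8 on chromosome 2. Within 25000 bases of each other lay 4 pairs, namely AT1G12805 with NUDT12, NUDT12 with AT1G12890 at 326 bases, NAC057 with PAP17, and AT4G34760 with AT4G34800. Of the members 17 overlap another annotated gene, 15 of them one on the opposite strand, among them AT4G26790 over 1920 bases, AT5G47440 over 458, GASA6 over 206, PAP17 over 122 and scpl20 over 96. Whether reads were counted by strand is not given in the sources used here, so the values of these genes are uncertain to that extent. The same holds for near copies such as the LSU and SAUR genes, where reads that fit more than 1 gene may have been split.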

How the data were processed

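Values are TPM, computed and deposited by the authors in 1 table of 24 libraries, in which each column sums to 1000000 and, as the values show, reads were divided by the annotated gene span. The libraries came from total RNA (Takara extraction, BGISEQ-500 library kit, per the labels' protocols). The submitters' processing notes list the TAIR10 genome, HISAT2, DESeq2 1.26.0 and fastp 0.20.1, without roles. The counting tool and its strand setting are not given in the sources used here. Because the span divides the reads, TPM were compared between groups of 1 gene and not between genes. Depth was read back from the table, where 99.97% of 462563 values above 0 came out as whole reads within 0.001. Members had few reads at the low end (4 to 14849 per ref6c 24 h library), and precision is limited accordingly. Gene names and products came from RefSeq TAIR10.1, matched by locus for 23641 of 23826 genes.

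Steps within ref6c and differences between genotypes were fitted with limma 3.58.1 in R 4.3.3 on log2(TPM + 1), with an intensity trend, over the 18481 genes with 1 TPM or more in at least 3 libraries. All 24 libraries in 8 groups shared 1 estimate of the spread with 16 residual degrees of freedom. P-values are 2-sided and Benjamini-Hochberg adjusted over all genes tested, with calls under 0.05. The fit was tested on simulated data, in which changes were put only into genes with higher levels in ref6c at 6 h. The members' median mean there was 2.04 TPM, so that simulation does not cover the members of low level. Fold changes of low genes are understated on the log2(TPM + 1) scale. Steps of Col were not tested, and calls of ref6c against Col are given as counts, since the Col libraries chose the members. The members, roles, gene lists, markers and motifs were chosen with earlier results of these data known. The rule for named genes took the 12 sharpest Col peaks, the 8 largest rises and falls in ref6c, the extremes of ref6c against Col at 24 h, the leading members of each family and list, and the neighbours of each limit. The remaining members are named by role. Alternatives were another pseudocount (0.1), median-of-ratios scaling, a minimum of 5 TPM or no filter, only the groups compared, no trend, a 2-fold minimum, voom on the recovered reads, a replicate block, leaving out each library, and other limits of the rule. Deviations of same-numbered libraries correlated at −0.191 to 0.394, which does not settle whether the numbers pair libraries.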

Additional observations from a re-analysis of the deposited data

Results flagged for a closer look

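In ref6c the transcripts of PAP17 went down from 6 h to 24 h, by a log2 change of −0.583, while in Col they went up. Every ref6c library at 24 h lay below every ref6c library at 6 h, and every Col library at 24 h lay above every Col library at 6 h. AT1G61260 went up from 24 h to 48 h in ref6c, by a log2 change of 0.372, while in Col it went down, and the step in ref6c was not called. The Col directions are fixed by the choice of the members, and the difference between genotypes was not tested. Groups of 3 libraries are too small for the test of a single library far from the others.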

How the results depend on the processing

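Counts of steps and calls in this paragraph include BGLU28 and AT5G26220, of which no test is read. Of 116 member steps in ref6c (6 h to 24 h and 24 h to 48 h), 108 were called. Apart from the 2-fold minimum, 8 of these lost the call under at least 1 alternative. Of all 116 steps 103 kept their side of the threshold under every alternative that tested them. The filter at 5 TPM tested 108 of the 116 steps, called or not, because AT5G26220, PC1, AT4G20040 and NAC057 did not pass it. No direction was reversed. Leaving out each library in turn gave 54 to 57 members higher at 24 h than at 6 h, 49 to 52 lower and 0 to 1 higher at 48 h than at 24 h. Against Col such fits gave at 0 h 1 to 2 lower and 2 to 4 higher, and at 6 h 16 to 24 lower and 6 to 7 higher. At 24 h they gave 41 to 47 lower and 2 to 3 higher, and at 48 h 24 to 29 lower and 10 to 14 higher. A 2-fold minimum left 47 members higher at 24 h than at 6 h and 37 lower at 48 h than at 24 h in ref6c. Against Col it left 0 lower and 1 higher at 0 h, and at 6 h 5 lower, with APR1, SOT16, CB5-C, UGT85A7 and SPX1 higher. It left 26 lower and 0 higher at 24 h, and 11 lower and 6 higher at 48 h. Small differences drop out by construction. The shares of all genes under this minimum are not given, so these 2-fold counts cannot be set against all genes. At 0 h median-of-ratios scaling gave 4 lower and 7 higher, and a pseudocount of 0.1 gave 5 lower. The cause was not tested. A ratio of 2 in the rule gave 119 genes, 40 of which met it in ref6c, and a ratio of 4 gave 16 and 3. A minimum of 10 TPM left 9 that met the rule in ref6c. With median-of-ratios scaling the rule gave 43 genes, all of them members, and 10 of these met it in ref6c. Without 1 Col replicate number at all times the rule gave 52 to 69 genes. The replicate block gave 57 members higher at 24 h and 50 lower at 48 h in ref6c and changed none of the 116 calls. Over 48 pairs of same-numbered libraries the correlation of deviations ran from −0.191 to 0.394, over 0.1 in 11. Pairs of different number were not set beside them, so pairing by number cannot be judged from these values. Depth limits BGLU28 and AT5G26220 most, which stood near 0.5 TPM in ref6c at 24 h.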

Other observations

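The rule read on the ref6c means was also met by 18 genes that are not members. In Col the mean of 14 of these was highest at 24 h as well, and 2 were under the 5 TPM minimum there. Several are enzymes of glucosinolate synthesis, named after their values were seen. CYP79B3 had means of 11.2 TPM at 24 h and 15.4 TPM at 48 h in Col, and 18.1 and 3.08 TPM in ref6c. CYP83B1 had 487 and 198 TPM in Col, and 483 and 136 TPM in ref6c. SOT17 had 16.04 and 13.03 TPM in Col, and 15.2 and 4.14 TPM in ref6c. IGMT5, a methyltransferase of indole glucosinolates, had 281 and 191 TPM in Col, and 214 and 59.9 TPM in ref6c. All 4 had a lower 48 h mean in ref6c than in Col. The choice favours this, since they met the ratio in ref6c and missed it in Col. Of the 18 genes all but AT4G20230, AT5G63240 and AT1G28100 had a lower 48 h mean in ref6c too. HOL1, a methyltransferase that makes methyl halides and methyl thiocyanate, had 20.7 and 122 TPM in Col, and 11.7 and 3.27 TPM in ref6c. The genes were chosen on the ref6c values, so no test is given.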
